A study of Bos indicus with 5 samples.

Results

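The transcripts of the fibroblast growth factor (FGF) ligands and their receptors were followed in the ampulla, the oviduct section where fertilization takes place, of 5 Nelore cows. The genes were taken from the deposited expression table by symbol. Of 10 symbols, FGF1, FGF2, FGF7, FGF9, FGF10, FGF18, FGFR1, FGFR2, FGFR3 and FGFR4, 9 were found among 24616 genes, 5 ligands and 4 receptors, and each symbol matched 1 gene. FGF10 was not analysed here. The choice did not use measured values.

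All cows were healthy and multiparous. They received a prostaglandin F2α analogue and a GnRH agonist for synchronization, then a progesterone-releasing vaginal device together with estradiol benzoate, and later prostaglandin at device removal and GnRH to induce ovulation. In LF/LCL (large follicle, large corpus luteum; 2 libraries) the device came out 42 h before GnRH and an extra prostaglandin injection was given when it was inserted. In SF/SCL (small follicle, small corpus luteum; 3 libraries) it came out 30 h before GnRH. Oviducts were taken on day 4 from the side of the corpus luteum, and the full thickness of the wall was used. Each library came from 1 cow, and replicates are numbered in the order of deposit. By the study's methods the cows were picked from the extremes of each group for follicle size, corpus luteum size and steroid concentrations, so the groups are not random samples of treated cows, and a further LF/LCL library was dropped by the authors for its quality.

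FGFs are secreted signals that bind heparan sulfate on cell surfaces and matrix and bring receptor tyrosine kinases together. The activated receptors signal mainly through the adaptor FRS2 to the RAS-ERK route, and also through PLCγ and PI3K-AKT, while Sprouty proteins and DUSP phosphatases act as feedback brakes. In tissues built of epithelium over stroma, such as the oviduct, FGF7 is typically made by mesenchymal cells and acts on an epithelial splice form of FGFR2, whereas FGFR1 is typical of stroma and vessels. Splice forms of a receptor share 1 entry in a gene-level table and were not told apart.

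The comparison asked whether the follicle and corpus luteum environment was accompanied by different levels of these transcripts. None of the 9 genes passed the test, which called 0 of the 15815 genes tested. The study's own test, DESeq, did report differing genes in these libraries, so the 0 belongs to the test used here. For each of the 9 the LF/LCL and SF/SCL values overlapped, while 30.1% of all genes tested did not overlap. The largest fold difference was in FGFR4, with a mean of 27.7 ± 17.2 normalized reads in LF/LCL (SD, n = 2) against 146 ± 185 in SF/SCL (SD, n = 3), where 1 cow had 358. FGF2 averaged 997 ± 222 and 1464 ± 435 in the same order, and FGFR1 598 ± 165 and 427 ± 85.2. For FGFR2, FGFR3, FGF1, FGF7, FGF9 and FGF18 the estimated log2 fold changes, LF/LCL over SF/SCL, lay between -0.45 and 0.27.

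Values are normalized reads, that is, reads counted on a gene divided by a size factor for the library. Libraries held from 13418278 to 19592174 reads on genes. The difference was tested with limma on log2(value + 1) for the 15815 genes whose mean was over 5, with p-values adjusted over all of them, and all 9 genes entered. Of the 9, 0 had a limma adjusted p under 0.05 (background 0%) and 0 had an unadjusted p under 0.05 (background 11.5%). With the edgeR quasi-likelihood test on recovered reads the counts were also 0 (background 0% adjusted and 11.6% unadjusted). DESeq2 called 0 of the 9 where it called 2.89% of all genes, and the edgeR exact test called 0 where it called 2.12%. Groups did not overlap in 0 of the 9 genes, and in 30.1% of all genes tested. Limma adjusted p-values of the 9 ran from 0.502 (FGFR1) to 0.973 (FGF1).

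**Figure D1:**
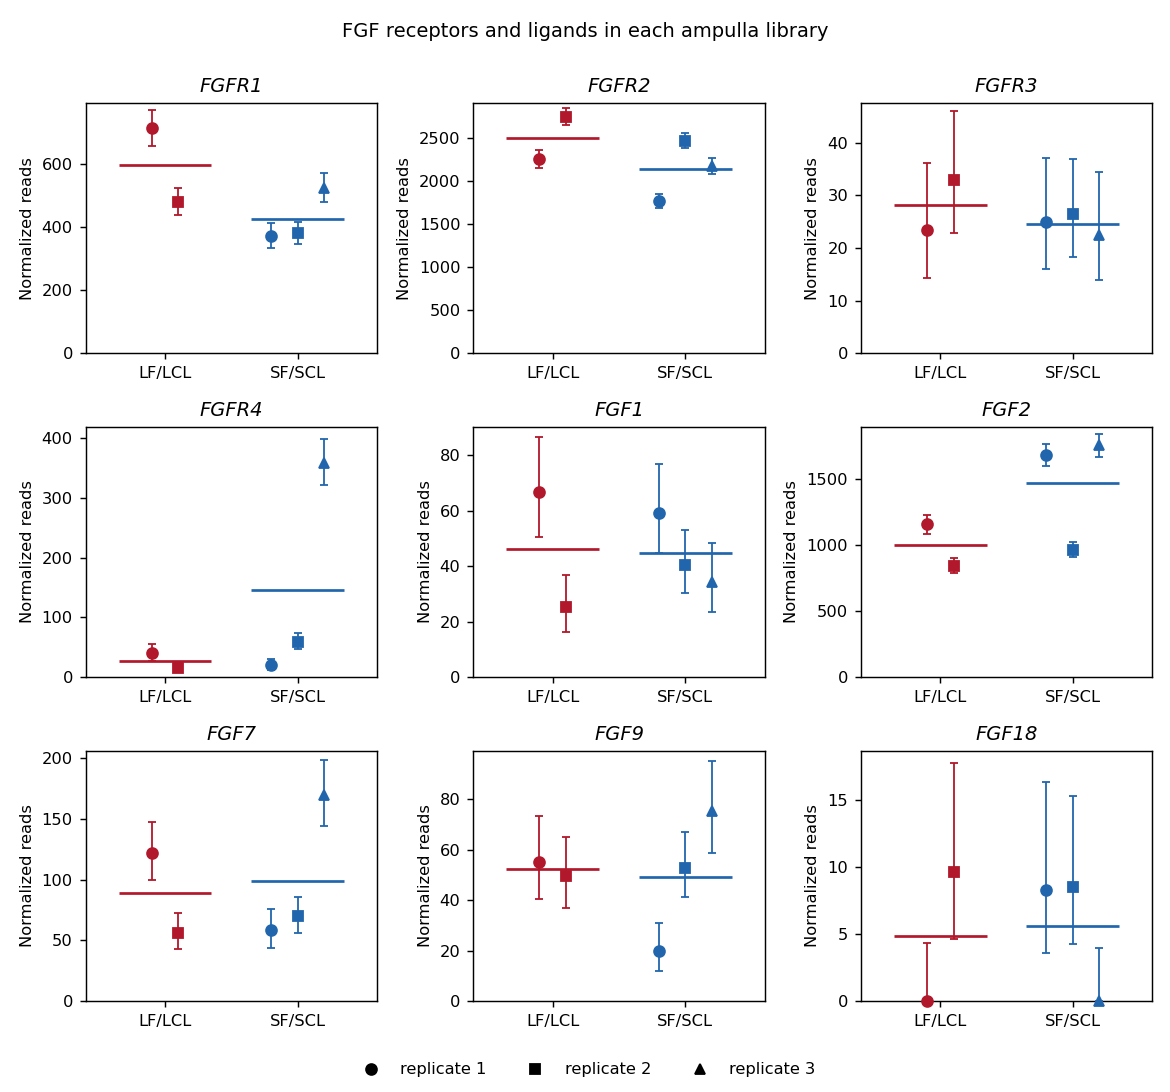
Normalized reads of the 4 receptors and 5 ligands in each library (vertical axis, linear from 0), with LF/LCL in red and SF/SCL in blue. Symbols mark the replicate, bars the exact Poisson 95% interval of the count and horizontal lines the group means. In each panel the LF/LCL and SF/SCL points overlap in range, and FGFR4 in SF/SCL replicate 3 (358) stands far above the other 4 libraries.

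Among the receptors, the 2 LF/LCL cows had 714 and 481 normalized reads of FGFR1, and SF/SCL replicates 1, 2 and 3 had 373, 382 and 525. SF/SCL replicate 3 lay above LF/LCL replicate 2, and the other 2 SF/SCL libraries were the lowest. The log2 fold change, LF/LCL over SF/SCL, was 0.48 ± 0.24 (SE) with a 95% interval from -0.10 to 1.05, which spans from close to no change to 2.07-fold more in LF/LCL (limma adjusted p 0.502). FGFR1 was the receptor with the smallest p, and its sign was positive in all 15 alternatives tried. Its value depended on single cows, however, being 0.19 without LF/LCL replicate 1 and 0.76 without LF/LCL replicate 2.

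FGFR2, the receptor for FGF7 on epithelia, had 2253 and 2747 normalized reads in LF/LCL against 1767, 2468 and 2172 in SF/SCL. The lowest library was SF/SCL replicate 1, and SF/SCL replicate 2 exceeded LF/LCL replicate 1. Group means were 2499.9 ± 349.4 (SD, n = 2) and 2136 ± 352 (SD, n = 3), with a log2 fold change of 0.23 ± 0.17 (SE), a 95% interval from -0.18 to 0.65 and a limma adjusted p of 0.659. The value was 0.09 without LF/LCL replicate 2 and 0.10 without SF/SCL replicate 1. The interval was the narrowest of the 9 genes, and its upper end equals 1.57-fold. From 1700 to 3176 reads stood behind each value, so that counting error was small beside the spread between cows.

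FGFR3 was even between the cows but rested on few reads, from 20 to 34 a library. It had 23.5 and 32.9 normalized reads in LF/LCL against 24.953, 26.4 and 22.5 in SF/SCL. The Poisson 95% intervals of the 5 libraries all overlapped, for example 22.8 to 46.0 in LF/LCL replicate 2 and 14.0 to 34.5 in SF/SCL replicate 3. The log2 fold change was 0.17 ± 0.40 (SE), with a 95% interval from -0.81 to 1.15 (limma adjusted p 0.914). The 5 libraries do not tell apart changes within that interval, which is not a limit of detection.

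FGFR4 showed the widest range. It had 39.9 and 15.5 normalized reads in LF/LCL against 19.8, 59.1 and 358 in SF/SCL, and the highest library, SF/SCL replicate 3, was 6.07 times the next one. That library held 334 reads of FGFR4, with a Poisson 95% interval from 321 to 399 normalized reads, against 76 reads and an interval from 46.5 to 73.9 in SF/SCL replicate 2. The highest library was 23.1 times the lowest. With 1 added to each value, a ratio this large or larger was rare, as 98.6% of the genes tested had a smaller one and the median gene a ratio of 1.55. The log2 fold change was -1.56 ± 1.21 (SE; 95% interval -4.56 to 1.44; limma adjusted p 0.679), and it went to -0.44 without SF/SCL replicate 3, to -0.90 without LF/LCL replicate 2, to -2.50 without SF/SCL replicate 1 and to -2.40 with DESeq2 (adjusted p 0.269). No difference between the groups can therefore be read from FGFR4 beyond the value of 1 cow.

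**Figure D2:**
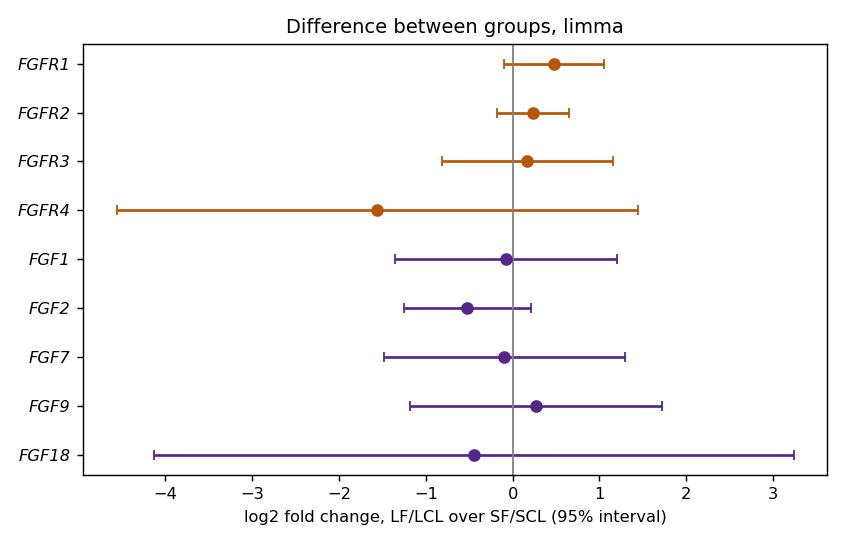
Log2 fold change of each gene, LF/LCL over SF/SCL (horizontal axis), with its 95% interval from limma, for receptors (orange) and ligands (purple). Every interval crosses 0, and the intervals of FGFR4 (-4.56 to 1.44) and FGF18 (-4.14 to 3.24) are the widest.

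The ligand FGF2, which binds several receptors and is stored on heparan sulfate, had 1154 and 840.2 normalized reads in LF/LCL against 1678, 964 and 1751 in SF/SCL. SF/SCL replicates 1 and 3 were the highest, and SF/SCL replicate 2 lay between the LF/LCL libraries. Its log2 fold change was -0.52 ± 0.30 (SE), with an interval from -1.26 to 0.21 (limma adjusted p 0.564). In all 15 alternatives it was negative, from -0.80 to -0.29. Without SF/SCL replicate 2 its unadjusted p in limma fell under 0.05, and the adjusted p was 0.325. FGFR1 and FGF2 have overlapping neighbours, where counting of unambiguous reads can drop some. In the RefSeq gene table of a Bos indicus assembly, which is not the build of these counts, FGF2 overlaps NUDT6 and FGFR1 overlaps LETM2. Whether counting used strand was not stated, and NUDT6 had from 43.6 to 66.8 normalized reads, and LETM2 from 21.8 to 32.8.

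FGF7, also named keratinocyte growth factor, had 122 and 56.1 normalized reads in LF/LCL against 58.2, 69.9 and 169.6 in SF/SCL. One cow of each group was high, and the Poisson interval of LF/LCL replicate 1, from 99.7 to 147.8, did not reach those of the 3 low libraries, the highest of which ended at 86.0. Means were 89.1 ± 46.5 (SD, n = 2) and 99.2 ± 61.2 (SD, n = 3), and the log2 fold change was -0.09 ± 0.57 (SE; 95% interval -1.48 to 1.29; limma adjusted p 0.971). The sign turned to 0.46 without LF/LCL replicate 2 and to 0.37 without SF/SCL replicate 3.

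FGF1, a ligand that binds all 4 receptors, had 66.8 and 25.2 normalized reads in LF/LCL against 59.3, 40.4 and 34.3 in SF/SCL. The LF/LCL cows held both the highest and the lowest value. Its log2 fold change was -0.08 ± 0.52 (SE), with an interval from -1.35 to 1.20 (limma adjusted p 0.973), and the count tests gave 0.04, so that it had no stable sign.

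FGF9, a ligand known from epithelial and mesothelial signalling to mesenchyme, had 55.1 and 49.4 normalized reads in LF/LCL against 19.8, 52.8 and 75.1 in SF/SCL. The LF/LCL values lay inside the SF/SCL range, and SF/SCL replicate 1 was low with 19 reads. The log2 fold change was 0.27 ± 0.60 (SE; 95% interval -1.18 to 1.72; limma adjusted p 0.904), and it was -0.27 without SF/SCL replicate 1.

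FGF18 was close to the limit of detection. It had 0 reads in LF/LCL replicate 1 and in SF/SCL replicate 3, where the Poisson 95% intervals ended at 4.33 and 3.96 normalized reads. In LF/LCL replicate 2 it had 9.68 normalized reads, and in SF/SCL replicates 1 and 2 it had 8.32 and 8.55, from 8 to 11 reads each. Libraries with and without reads thus occurred in both groups, and the log2 fold change of -0.45 ± 1.51 (SE; limma adjusted p 0.941) had the interval from -4.14 to 3.24.

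**Figure D3:**
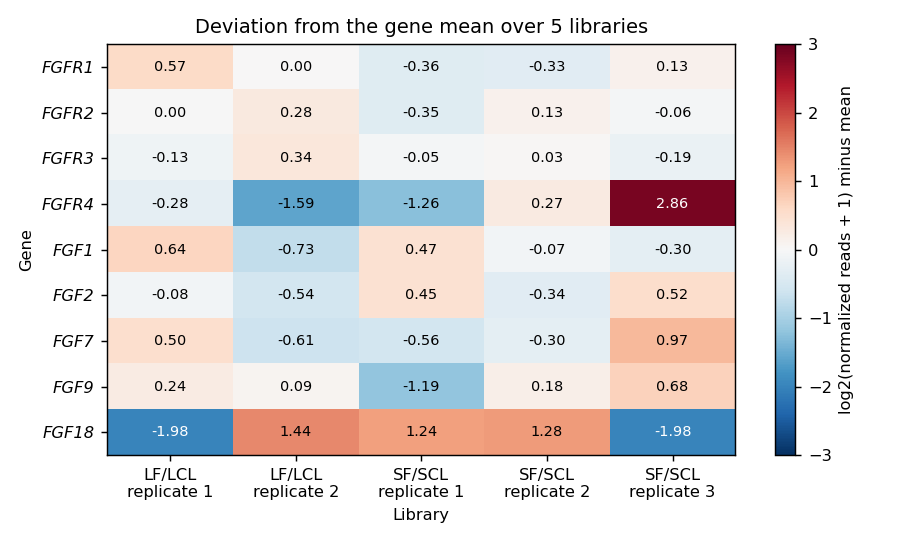
Deviation of log2(normalized reads + 1) from the gene's own mean over the 5 libraries (colour and printed value), with genes in rows and libraries in columns. SF/SCL replicate 3 holds the highest value of FGFR4 (2.86), FGF7 (0.97), FGF9 (0.68) and FGF2 (0.52), and no gene has 1 sign in LF/LCL and the other in all SF/SCL libraries.

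The extremes were spread unevenly over the cows, and SF/SCL replicate 2 held 0 of them. The highest value fell in SF/SCL replicate 3 for 4 genes (FGF2, FGF7, FGF9 and FGFR4), in LF/LCL replicate 2 for 3 (FGF18, FGFR2 and FGFR3) and in LF/LCL replicate 1 for 2 (FGF1 and FGFR1). The lowest value fell in LF/LCL replicate 2 for 4 genes (FGF1, FGF2, FGF7 and FGFR4) and in SF/SCL replicate 1 for 3 (FGF9, FGFR1 and FGFR2). FGFR3 was lowest in SF/SCL replicate 3, and FGF18 was 0 there and in LF/LCL replicate 1. The median standard error of the log2 fold change was 0.52 for the 9 genes and 0.21 for all genes tested. In the expression classes used by the study, FGFR2 and FGF2 were high (mean of at least 1000 normalized reads), FGF18 was low (under 15) and the other 6 were medium. No transcript lengths came with the table, so levels were not ranked between genes.

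Most other FGF genes had few reads. Of 16 further family symbols, 14 were found and 4 had a mean over 5. None of the 4 passed in any test (background 0% with limma and edgeR quasi-likelihood, 2.89% with DESeq2 and 2.12% with the exact test). In limma 0 had an unadjusted p under 0.05 (background 11.5%). FGF13, an intracellular family member that modulates sodium channels, had 79.7 and 60.0 normalized reads in LF/LCL against 40.5, 79.3 and 33.3 in SF/SCL. FGF11, also intracellular, had 25.8 and 18.4 in LF/LCL against 11.4, 12.4 and 14.0 in SF/SCL, without overlap, with a log2 fold change of 0.75 ± 0.47 (SE) and a limma adjusted p of 0.593. FGF3 lay between 4.16 and 14.8 normalized reads in every library. The endocrine ligands act at a distance through Klotho co-receptors. FGF19 had 0 reads in all 5 libraries, FGF23 4 reads in total and FGF21 44, with 1.17 and 5.81 normalized reads in LF/LCL against 19.8, 4.66 and 12.9 in SF/SCL (log2 fold change -1.61 ± 0.89 SE, limma adjusted p 0.547, and -0.79 without LF/LCL replicate 1). The co-receptor for FGF19 and FGF21, KLB, had 8 reads in total. The other Klotho gene, KL, named after its values were seen, had 123 reads in total. It had 62.2 and 20.3 normalized reads in LF/LCL against 9.36, 28.0 and 4.29 in SF/SCL. Its log2 fold change was 1.65 ± 0.88 (SE), with a limma adjusted p of 0.529. FGF4 and FGF6 had 0 reads, and FGF5, FGF8, FGF16, FGF17, FGF20 and FGF22 from 2 to 21 in total.

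The co-receptors and binding proteins included Klothos, syndecans, glypicans, perlecan and cell adhesion partners of the receptors. Of 22 listed symbols, 20 were found and 15 tested. None had an adjusted p under 0.05 with limma, edgeR or DESeq2 (background 0%, 0% and 2.89%). In limma 3 had an unadjusted p under 0.05 (background 11.5%), of which 2 were higher in SF/SCL. Groups did not overlap in 8 of the 15, beside 30.1% of all genes. The 3 most abundant were HSPG2 (perlecan, a basement membrane heparan sulfate proteoglycan), CDH2 (N-cadherin) and SDC4 (syndecan-4). The LF/LCL cows had 998 and 874 normalized reads of SDC4, below the 1197, 1485 and 1207 of SF/SCL (log2 fold change -0.47 ± 0.14 SE, limma adjusted p 0.331). CDH2 had 1997 and 2128 in LF/LCL against 2258, 2302 and 2388 in SF/SCL, which did not overlap, with a log2 fold change of -0.17 ± 0.09 (limma adjusted p 0.554). HSPG2 had a log2 fold change of 0.07 ± 0.25 (limma adjusted p 0.943). The other 2 with an unadjusted p under 0.05, named after their values were seen, were the glypicans GPC1 (log2 fold change 0.60, limma adjusted p 0.330) and GPC5 (-1.83, 0.330).

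Signal transduction genes below the receptors lay close to 0. All 25 listed were tested, and 0 had an adjusted p under 0.05 with limma, edgeR or DESeq2 (background 0%, 0% and 2.89%). In limma 2, both higher in LF/LCL, had an unadjusted p under 0.05 (background 11.5%). Their log2 fold changes ran from -0.24 to 0.39 with a median of 0.04, beside 0.01 over all genes. SHC1, an adaptor, had from 3137 to 4073 normalized reads over the libraries with a log2 fold change of -0.04 ± 0.14 (SE), AKT1 from 2021 to 2342 with 0.11 ± 0.10, and PIK3R1 from 1665 to 2390 with 0.20 ± 0.15, a value that was 0.0098 without LF/LCL replicate 1. The 2 genes, named after their values were seen, were PLCG1 (0.39 ± 0.11, limma adjusted p 0.308), the phospholipase that FGF receptors bind directly, and MAPK3 (ERK1; 0.30 ± 0.11, limma adjusted p 0.409).

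Feedback inhibitors held 1 gene that some tests called. Of 13 listed, 12 were tested and 0 passed with limma (background 0%). In limma 1 had an unadjusted p under 0.05 (background 11.5%), and the median log2 fold change was -0.06. SPRY4, a Sprouty protein that damps receptor to ERK signalling, had 853 and 789 normalized reads in LF/LCL against 1147, 1198 and 1291 in SF/SCL. Both LF/LCL values lay under all SF/SCL values. The log2 fold change was -0.56 ± 0.11 (SE), with a limma adjusted p of 0.222, while DESeq2 called it (adjusted p 0.00628) and so did the edgeR exact test (adjusted p 0.0499), where these tests called 2.89% and 2.12% of all genes. DUSP6, an ERK phosphatase, had 1139 and 1062 normalized reads in LF/LCL against 1082, 1132 and 1207 in SF/SCL (log2 fold change -0.05 ± 0.10). SPRY1 had 1627 and 920.5 in LF/LCL against 745, 952 and 1022 in SF/SCL (0.45 ± 0.27, limma adjusted p 0.582), and its log2 fold change was 0.035 without LF/LCL replicate 1 and 0.86 without LF/LCL replicate 2. FGFRL1, a receptor-like protein without kinase domain and named after its values were seen, had 264 and 257 in LF/LCL against 132, 345 and 409 in SF/SCL.

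Genes that FGF signals can raise through ERK had a median log2 fold change of 0.22, with 9 of the 13 tested above 0 (50.79% of all genes tested). The median was -0.22 without LF/LCL replicate 1 and -0.06 without SF/SCL replicate 1. Of 15 listed, 0 passed with limma (background 0%) and 3 had an unadjusted p under 0.05 (background 11.5%), of which 2 (IER2 and IER3) were higher in LF/LCL. MYC, a growth regulator, had 511 and 436 normalized reads in LF/LCL against 733, 999 and 1510.0 in SF/SCL, with no overlap. Its log2 fold change was -1.13 ± 0.30 (SE), with a limma adjusted p of 0.306, while DESeq2 (adjusted p 0.0181) and the edgeR exact test (adjusted p 0.0314) called it, against 2.89% and 2.12% of all genes. IER2, an immediate early gene, had 846 and 817 in LF/LCL against 539, 685 and 665 in SF/SCL (0.41 ± 0.14, limma adjusted p 0.377), and IER3, named after its value was seen, had a log2 fold change of 0.68 (limma adjusted p 0.363). CCND1, cyclin D1, had a log2 fold change of -0.41 ± 0.30 (limma adjusted p 0.658), which was -0.06 without LF/LCL replicate 2 and -0.19 without SF/SCL replicate 3. ETV4 and ETV5, transcription factors often read as FGF targets and named here after their values were seen, varied between cows, ETV4 from 70.7 to 414 and ETV5 from 289 to 639 normalized reads, with log2 fold changes of 0.49 ± 0.79 and -0.02 ± 0.43.

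**Figure D4:**
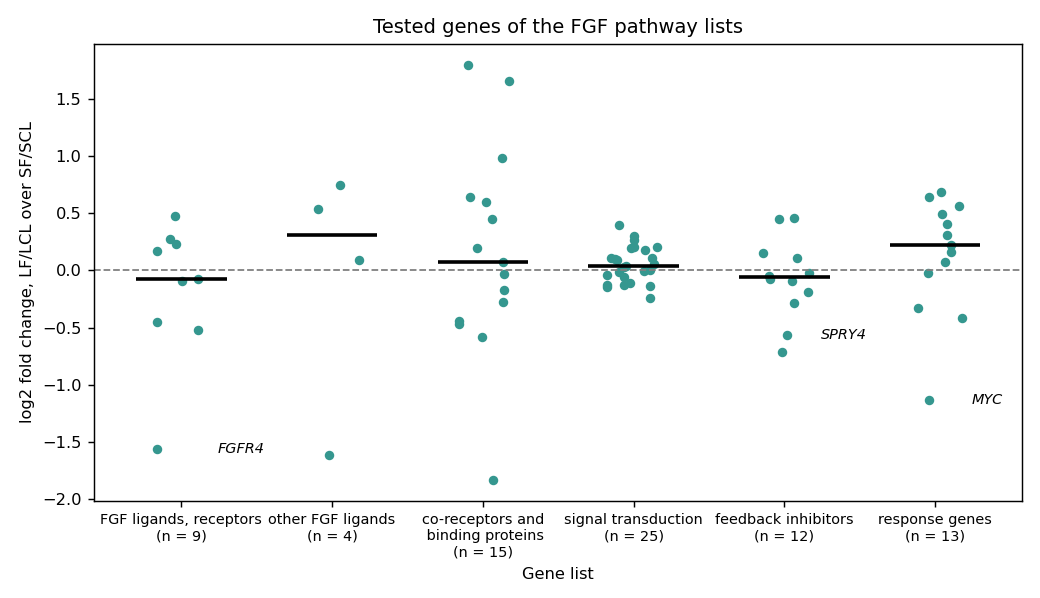
Log2 fold change, LF/LCL over SF/SCL (vertical axis), of each tested gene in the 6 lists of the pathway, with the list median as a black line and the median of all genes (0.01) as a dashed line. The signal transduction genes lie closest to 0 (-0.24 to 0.39), and SPRY4, MYC and FGFR4 are labelled.

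The tissue held its defining transcripts, with OVGP1 (oviductin) from 117179 to 147247 and FOXJ1 (ciliated cells) from 8481 to 12698 normalized reads. Summed smooth muscle markers (12 of 13 symbols found) ran from 66783 to 128925 in LF/LCL and from 17974 to 44526 in SF/SCL, and stromal fibroblast markers (13 of 13) from 40860.2 to 96132 and from 26018 to 54110.1. Ciliated markers (14 of 17, PIFO with reads in SF/SCL replicate 3 only) ran from 66347 to 83601 and from 96474 to 101264, and proliferation markers (16 of 16) from 2471 to 3237 and from 2084 to 2296. These 3 lists, smooth muscle, ciliated and proliferation, did not overlap between the groups, and among single genes 30.1% did not. The sums of secretory (157436 to 184923 over both groups, 10 of 11), endothelial (5659 to 9972, 11 of 12), immune (1799.9 to 3901, 16 of 16), mesothelial (11274 to 21821, 7 of 7) and blood markers (32.2 to 528, 5 of 9, ALAS2 at 0) overlapped. OVGP1 made up most of the secretory sum. Singly, 9 of 12 smooth muscle, 11 of 13 ciliated, 10 of 16 proliferation and 3 of 13 stromal markers tested did not overlap. The counts were 7 of 10 secretory, 9 of 15 immune, 1 of 11 endothelial, 1 of 6 mesothelial and 0 of 3 blood markers. DESeq2 called 5 smooth muscle markers, all higher in LF/LCL, and 3 ciliated markers, all higher in SF/SCL. It also called 2 secretory, 1 endothelial and 1 immune marker, where it called 2.89% of all genes. In such bulk tissue, fewer cells of a type and less RNA per cell cannot be told apart.

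FGFR1 and FGF7 were set beside the stromal and muscle sums, since both are typical of cells under the epithelium. LF/LCL replicate 1 had the highest stromal sum (96132) and muscle sum (128925), and also the highest FGFR1 and the second highest FGF7. SF/SCL replicate 3 had the second highest stromal sum (54110.1) but the lowest muscle sum (17974), with the highest FGF7 and the second highest FGFR1. The other 3 libraries ranked LF/LCL replicate 2, SF/SCL replicate 2 and SF/SCL replicate 1 in FGFR1, which was their order in the muscle sum, and in the stromal sum SF/SCL replicate 1 came first. The part of tissue composition in the values of FGFR1, FGF7 and the other genes was not tested.

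**Figure D5:**
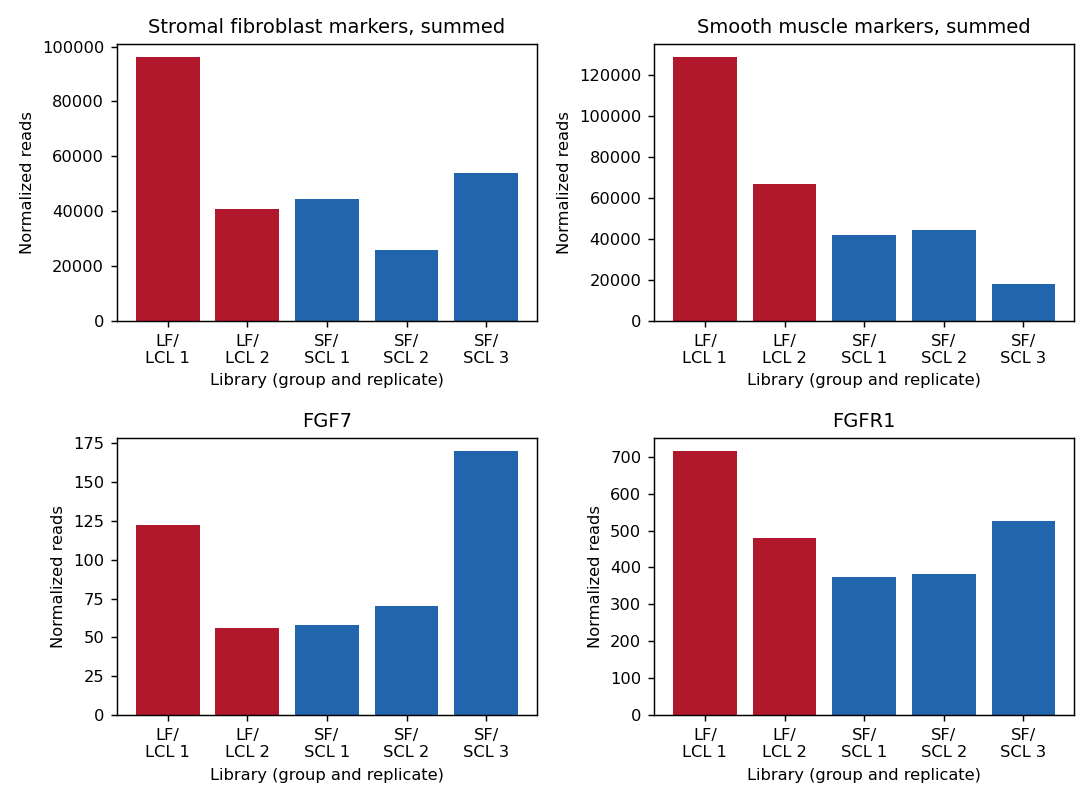
Summed stromal fibroblast and smooth muscle markers, FGF7 and FGFR1 in each library (vertical axes, normalized reads, linear from 0), with LF/LCL in red and SF/SCL in blue. LF/LCL replicate 1 and SF/SCL replicate 3 are the 2 highest libraries for stromal markers, FGF7 and FGFR1, while SF/SCL replicate 3 is the lowest for smooth muscle markers.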

How the data were processed

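RNA from ampulla tissue of 5 cows was made into polyA libraries and sequenced in pairs by the authors. Per the labels and methods, reads were trimmed with seqyClean, aligned with TopHat2 2.0.8 and Bowtie2 2.1.0 to the masked UMD cattle assembly, sorted with SAMtools 0.1.18 and counted with HTSeq 0.5.4p2, keeping unique and unambiguous hits. The strand setting was not given in the sources used here. The deposited unit is a signal, the count of a gene divided by a DESeq 1.12.1 size factor per library. Values were whole multiples of 1 step per library within 0.1 read for 100% of nonzero values, so reads were recovered by division.

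Groups came from the sample titles. Genes with a mean over 5 (15815) were tested with limma 3.58.1 (R 4.3.3; lmFit, eBayes with trend and robust) on log2(value + 1), two-sided, with Benjamini-Hochberg adjustment at 0.05 and no covariates, since the study names none. The value added before the log draws the fold change of low genes toward 0, as in FGF18, -0.45 with 1 added and -0.60 with 0.5. Against the count tests it was not smaller for every low gene. FGF18 had -0.18 with edgeR quasi-likelihood and -0.21 with DESeq2. The study used the negative binomial test of DESeq, and with it reported ampulla genes that differed in both directions. Its enriched terms name PLCG1 among genes higher in LF/LCL and SPRY4 among genes higher in SF/SCL. The limma fit here called none of the genes tested. The edgeR 4.0.16 and DESeq2 1.42.0 tests on recovered reads, other pseudocounts, filters and scalings, and the omission of each library were alternatives. Poisson intervals are exact, at 95%, and cover counting error only. The limma fit given first and the edgeR and DESeq2 fits were tested on simulated data, and the other alternatives were not. Genes named are the 9 found, other FGF ligands tested, and from each pathway list the 3 with the highest mean and any called. The genes and lists were chosen with earlier results of these data known. RefSeq gene tables of another assembly were used only for overlaps of gene symbols.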

Additional observations from a re-analysis of the deposited data

How the results depend on the processing

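In none of the 15 alternatives did an FGF ligand or receptor reach an adjusted p under 0.05, and the lowest adjusted p of any of them was 0.269 (FGFR4, DESeq2). At an unadjusted p under 0.05 the count was 1 with DESeq2 (FGFR4), beside 2013 of the 15815 genes tested. When an SF/SCL library was left out it ran from 0 to 1, beside 1497 to 1658 of all genes. FGFR1 was the gene without SF/SCL replicate 3, and FGF2 without SF/SCL replicate 2. Over all genes, DESeq2 called 457 and the edgeR exact test 335, where limma called 0, and both called SPRY4 and MYC. The cause was not tested. Leaving out a library, which makes separation easier, raised the genes without overlap from 0 to between 1 and 7, the 7 without LF/LCL replicate 1, where 56.9% of all genes were apart. Over these omissions the share of all genes apart ran from 41.2% to 57.1%. Means of the 9 genes over all libraries moved by less than their spread between cows under TMM and library size scaling. Such scalings hardly shift a mean over all libraries, so this comparison could not show an effect on single libraries. FGFR4 was not tested in the alternative that kept genes with a mean above their SD, a filter the study also names. Its mean over the libraries was 98.5 and its SD 146.

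The log2 fold change of FGF1 turned from -0.08 to 0.0373 with the edgeR quasi-likelihood test and DESeq2 and to 0.0371 with the exact test. When libraries were omitted one by one, it ran from -0.77 to 0.61, that of FGF7 from -0.65 to 0.46, FGF9 from -0.27 to 0.67, FGF18 from -2.16 to 1.26, FGFR3 from -0.0653 to 0.41, FGF3 from -0.39 to 0.52, HSPG2 from -0.33 to 0.47 and SHC1 from -0.11 to 0.0742. With the sign kept, values ran from 0.09 to 0.38 for FGFR2, 0.035 to 0.86 for SPRY1, -0.76 to -0.06 for CCND1, 0.0098 to 0.39 for PIK3R1, -2.44 to -0.79 for FGF21 and 0.28 to 0.90 for FGF13. List medians over the same fits ran from 0.0807 to 0.19 (the 9 genes, against -0.08 with all libraries), 0.0133 to 0.58 (other ligands), -0.12 to 0.35 (co-receptors), 0.0359 to 0.0926 (signal transduction, 0.00397 with library size only), -0.16 to 0.05 (feedback inhibitors) and -0.22 to 0.43 (response genes). With 1 LF/LCL library left, it is assumed to vary like the other group. No paired analysis was possible because the labels give no number that ties a cow of one group to a cow of the other. FGF18 and FGFR3 rested on at most 11 and 34 reads a library, so their intervals from counting alone were wide.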

Other observations

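Ratios within a library do not depend on its size factor, and 2 were computed after the values were seen, without a test. FGFR1 reads per FGFR2 read were 0.317 and 0.175 in LF/LCL against 0.211, 0.155 and 0.242 in SF/SCL, so the groups overlapped. FGF7 per 1000 normalized reads of summed stromal fibroblast markers was 1.27 and 1.37 in LF/LCL against 1.31, 2.69 and 3.13 in SF/SCL. On that scale LF/LCL replicate 1, where FGF7 itself was high, was the lowest library, and SF/SCL replicate 3 stayed the highest.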
